A study of Homo sapiens with 47 samples.

Results

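Clone C4 is 1 of 6 HAP1 lines that carry an edited *NUP58* gene, and it was compared here with the unedited parental cells (WT) by bulk RNA sequencing. The comparison used every library titled C4 and every library titled WT, 4 of each, which is 8 of the 47 libraries of the study. HAP1 is a near-haploid line that came from a human chronic myeloid leukemia. To make the clones, the study expressed Cas9 with a pair of guide RNAs against exons 4 and 13 of *NUP58*, grew single sorted cells into colonies and kept the smallest viable ones, so C4 is a single clone taken at an early passage. By the study's account of its genotype, C4 carries a short insertion in exon 4 that brings a premature stop codon and a short in-frame deletion in exon 13, and a subset of its transcripts skips exon 4. The empty vector line (EV), with Cas9 but no guide RNA, and the other 5 edited clones (C1, C2, C3, C5 and C6), with 4 libraries each, were used only to show where C4 stands among the 32 HAP1 libraries. WT was neither transfected nor grown from a single cell, so that editing and cloning cannot be told apart in C4 against WT.

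NUP58 is a nucleoporin of the central channel of the nuclear pore complex, where it forms a trimer with NUP62 and NUP54. These channel proteins carry repeats of phenylalanine and glycine that bind transport receptors, the karyopherins, on their way between the cytoplasm and the nucleus. Ran, a small GTPase, gives this traffic its direction, because importins release their cargo and exportins bind theirs in the presence of its GTP form.

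Expression was measured as FPKM, that is, fragments scaled for transcript length and for the total mapped in each library. No read counts were used, which leaves the depth behind a single value unknown. The depth of a library relative to WT replicate 1, read from the value of a single fragment, was 0.793 to 1.0 in WT and 0.795 to 1.16 in C4, and 18570 to 18962 and 18217 to 18899 genes were above 0. Of 12 blood cell markers, 11 were below an FPKM of 1 in all 8 libraries, among them *PTPRC*, *CD34* and *GATA1*, although the line came from a leukemia. The 5 endothelial markers were also below 1 throughout. The 7 markers of adherent mesenchymal cells summed to 248 to 305 FPKM in WT and 233 to 290 in C4. Between libraries of 1 line, Pearson's r across genes was 0.933 to 0.982, a description only, since genes are not independent replicates. The study describes its RNA sequencing replicates as biological replicates and as independent experiments. The labels do not say how they were grown, and all C4 libraries are of 1 clone, so p-values measure the spread between these libraries.

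*NUP58* (ENSG00000139496.15, GRCh38 chr13:25301524-25365390, plus strand) was at 34.3, 34.7, 50.4 and 45.8 FPKM in the WT libraries and at 25.4, 22.6, 28.0 and 25.9 in C4. The groups did not overlap, and the mean of C4 (25.5 ± 2.24, SD, n = 4) was 61.7% of the mean of WT (41.3 ± 8.07, n = 4). On the log2(FPKM + 1) scale the difference was -0.66 ± 0.15 (SE), with an unadjusted limma p of 0.0014. It missed the threshold over all genes at an adjusted p of 0.196, and it passed at 0.0141 when replicate numbers were fitted as a block. The study itself reported less *NUP58* mRNA and less NUP58 protein in C4 than in WT. Over all alternatives the difference lay between -0.56 and -0.74, with adjusted p-values from 0.0141 to 0.583. An exact two-sided permutation test of the 8 values gave p = 0.0286, the smallest that 70 arrangements allow. EV held 35.3 to 45.0 FPKM and overlapped WT. The other 5 clones held 7.98 to 22.1 FPKM, below every C4 library, with means of 10.1, 9.80, 12.8, 15.6 and 15.4 for C1, C2, C3, C5 and C6. C4 was known to hold the most of this mRNA when it was chosen, so its place above the other clones is given without a test. The gene's FPKM does not separate transcripts with and without exon 4.

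The donor splice site of exon 4 is shown because the skipping of this exon sets part of the *NUP58* mRNA of C4 apart from that of WT. In the transcript ENST00000381736 of GENCODE 44, which has 16 exons, the 150 bases of exon 4 are a multiple of 3, and exon 13 spans chr13:25331357-25331558 (GRCh38) and has 202 bases. The window of 30 bases below is from the reference genome (hg38, plus strand), not from C4, with exon bases in capitals and intron bases in lower case.
Donor side of exon 4, chr13:25313018-25313047: CATCAACTCCAGCAGgtgaggcagaatgaa

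Across 13125 tested genes, 21 differed between C4 and WT at an adjusted p under 0.05 (0.16% of those tested), 12 higher in C4 (0.0914%) and 9 lower (0.0686%). The higher genes were led by *DLK1*, *HCLS1*, *CADM1*, *SYT1* and *TCEAL9*, each 9.61 to 33.0 times the WT mean, and the lower genes by *ANXA1*, *ZNF22*, *GTSF1* and *MYRIP*, each 0.0467 to 0.148 times the WT mean. At an unadjusted p under 0.01 and over 2-fold, 90 genes were called (0.686%), 52 higher (0.396%) and 38 lower (0.29%), and in 78 of them the C4 libraries did not overlap the WT libraries. Over all tested genes, 632 did not overlap (4.82%), 870 had an unadjusted p under 0.05 (6.63%), and 7555 lay below WT (57.6%), and the counts of list members below are to be read against these shares. The replicate block gave 319 calls (2.43%), 114 higher (0.869%) and 205 lower (1.56%), among which were all 21. The median log2 fold change of all tested genes was -0.04. Log2 fold changes are C4 minus WT on the log2(FPKM + 1) scale, and a value given as "with the block" is the adjusted p of that fit. Every gene named below from the 21 gave an exact permutation p of 0.0286, which is the smallest these 8 libraries allow. Any gene without overlap gives this value, and the 21 were picked from the same libraries, so it adds no support.

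*DLK1*, an imprinted gene whose product is a transmembrane relative of the Notch ligands, was at 3.62, 3.75, 12.2 and 3.25 FPKM in WT and at 70.2, 145, 90.2 and 113 in C4. The lowest C4 library was above the highest WT library, replicate 3, which itself stood well above the other WT libraries. The log2 fold change was 4.11 ± 0.36 (SE, adjusted p = 0.00165). *CADM1*, an adhesion molecule of the immunoglobulin family, rose from 0.270, 0.164, 0.153 and 1.91 FPKM to 12.97, 18.1, 14.6 and 12.4 (log2 fold change 3.37 ± 0.30, adjusted p = 0.00165). In WT, all libraries but replicate 4 held almost none of it. *TMEM132E*, a transmembrane protein linked to hereditary hearing loss, was at 0.197, 0.229, 0.459 and 0.130 FPKM in WT and at 6.42, 7.92, 7.20 and 3.54 in C4 (2.50 ± 0.24, adjusted p = 0.0027). In bulk RNA, more cells that express a gene and more RNA per cell cannot be told apart.

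*HCLS1*, an actin-binding adaptor best known from blood cells, was at 0.776, 0.998, 0.534 and 0.479 FPKM in WT and at 23.4, 19.9, 22.7 and 26.1 in C4, a log2 fold change of 3.83 ± 0.16 (adjusted p = 5.87e-06). The blood cell markers did not move with it, at a sum of 0.376 to 2.46 FPKM in WT and 0.401 to 1.22 in C4. *SYT1*, the calcium sensor of synaptic vesicle release, was at 2.23, 2.98, 1.24 and 1.98 FPKM in WT against 28.9, 62.0, 13.8 and 29.1 in C4 (3.31 ± 0.38, adjusted p = 0.00641). Its C4 values varied widely, with replicate 2 highest and replicate 3 lowest, yet all stood far above WT. The 6 neuronal markers summed to 61.2 to 126 FPKM in WT and 20.6 to 86.0 in C4, with *RBFOX3*, *SNAP25* and *ELAVL3* below 1 in all 8 libraries, and their part in the *SYT1* result was not tested. *STXBP2*, which binds syntaxins and is needed for granule release, rose from 3.61, 5.60, 2.58 and 3.59 FPKM to 18.8, 23.2, 15.3 and 19.2 (2.08 ± 0.20, adjusted p = 0.0028). The *STXBP2* call was lost against EV, as given below.

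*TCEAL9*, of the family of proteins related to transcription elongation factor A, was at 6.32, 5.25, 5.61 and 6.01 FPKM in WT and at 57.4, 45.3, 53.6 and 66.6 in C4 (log2 fold change 3.05 ± 0.14, adjusted p = 7.44e-06). Both lines were tight, and this gene and *HCLS1* had the smallest adjusted p-values of the comparison. *BMP7*, a bone morphogenetic protein ligand, was at 1.88, 2.14, 1.28 and 0.922 FPKM in WT and at 19.9, 23.2, 11.4 and 17.0 in C4 (2.87 ± 0.24, adjusted p = 0.00148). *FZD8*, a Wnt receptor, rose from 1.34, 1.08, 0.775 and 0.827 FPKM to 3.90, 4.41, 3.61 and 3.15 (1.25 ± 0.18, adjusted p = 0.0294). *HOXD13*, which patterns the distal limb, was at 6.36, 5.16, 6.96 and 6.48 FPKM in WT against 23.1, 13.9, 16.1 and 17.5 in C4 (1.35 ± 0.17, adjusted p = 0.0126). Neither pair of groups overlapped. *ZNF256*, a zinc finger gene of chromosome 19, was at 0.531, 0.240, 0.402 and 0.271 FPKM in WT and at 3.35, 2.31, 3.54 and 3.16 in C4 (1.58 ± 0.19, adjusted p = 0.0114).

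Among the genes that fell, *ANXA1*, a calcium-dependent phospholipid-binding protein with a role in resolving inflammation, was at 16.5, 9.47, 9.60 and 7.60 FPKM in WT and at 1.75, 0.912, 1.44 and 0.949 in C4 (log2 fold change -2.35 ± 0.24, adjusted p = 0.00306). *ZNF22*, a zinc finger gene, went from 5.55, 3.16, 4.78 and 6.73 FPKM to 0.0396, 0.737, 0.0560 and 0.111 (-2.29 ± 0.26, adjusted p = 0.00641). Replicate 2 held most of what was left in C4. *GTSF1*, a cofactor of small RNA silencing of transposons in the germline, was at 17.0, 10.5, 8.32 and 11.3 FPKM in WT and at 2.32, 1.77, 1.63 and 1.27 in C4 (-2.19 ± 0.22, adjusted p = 0.00299). *MYRIP*, which ties Rab27 vesicles to myosin, was at 4.61, 5.34, 4.54 and 3.24 FPKM against 0.477, 0.910, 0.696 and 0.450 (-1.73 ± 0.20, adjusted p = 0.00641). All 4 genes were well apart between the lines.

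The other 5 genes that fell had smaller changes. *GCNT1*, an enzyme that branches O-linked glycans, had 2.35 to 3.63 FPKM in WT and 0.477 to 0.604 in C4 (log2 fold change -1.33 ± 0.19, adjusted p = 0.0294). *TES*, a LIM domain protein of focal adhesions, ran from 4.56 to 6.33 FPKM in WT and from 1.04 to 1.93 in C4 (-1.29 ± 0.18, adjusted p = 0.0259). *GPAT3*, an acyltransferase of triglyceride synthesis, ran from 8.03 to 12.8 FPKM and from 3.79 to 4.45 (-1.24 ± 0.16, adjusted p = 0.0169). None of these ranges met. *GREB1*, known as an estrogen-responsive gene, had 1.90 to 2.39 FPKM in WT and 0.246 to 0.450 in C4 (-1.23 ± 0.18, adjusted p = 0.0396). *DMKN*, which encodes a protein secreted by skin cells, was the most abundant of the 9, at 59.1 to 72.0 FPKM in WT and 33.0 to 40.5 in C4, and had the smallest change (-0.82 ± 0.11, adjusted p = 0.0243).

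The last 3 genes named for their decrease, all of them large, missed the adjusted threshold and passed it with the replicate block. *ESRG*, a long non-coding RNA known from pluripotent cells, was at 3.59, 4.28, 14.6 and 8.60 FPKM in WT and at 0.295, 0.366, 0.677 and 0.914 in C4 (-2.33 ± 0.37, adjusted p = 0.0504, with the block 0.00464). *ERVK-28*, an endogenous retrovirus whose reads may be shared with near-identical copies, was at 8.39 to 11.1 FPKM in WT and at 1.83, 2.28, 0.934 and 7.85 in C4 (-1.66 ± 0.39, adjusted p = 0.215, with the block 0.0334). Replicate 4 of C4 was close to WT, and without it the gene passed. *SLC43A3*, a nucleobase transporter, was at 8.11 to 15.9 FPKM in WT and 1.52 to 5.09 in C4 (-1.60 ± 0.30, adjusted p = 0.0941, with the block 0.00373).

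With any 1 of the 8 libraries left out, 11 of the 21 genes stayed under an adjusted p of 0.05: *DLK1*, *HCLS1*, *CADM1*, *SYT1*, *TCEAL9*, *BMP7*, *TMEM132E*, *STXBP2*, *ANXA1*, *ZNF22* and *GTSF1*. The highest adjusted p was 0.000169 for *HCLS1* and for *TCEAL9* (without C4 replicate 1), 0.0451 for *SYT1* and 0.0495 for *ZNF22* (both without WT replicate 1). *MYRIP* was lost without WT replicate 1 alone (0.0504). *HOXD13* was lost without WT replicate 1, WT replicate 4 or C4 replicate 4 (up to 0.0673), and *ZNF256* without WT replicate 4 or C4 replicates 1, 3 or 4 (up to 0.081). *FZD8*, *GCNT1* and *GREB1* passed only with all 8 libraries, and *TES*, *GPAT3* and *DMKN* passed in 1, 2 and 1 of the 8 reduced sets. For these 6 genes the highest adjusted p lay between 0.0941 for *GPAT3* and 0.163 for *FZD8*, without WT replicate 1, C4 replicate 1 or C4 replicate 4. Directions stayed the same in every such set.

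EV gives a second unedited comparison, made with the same C4 libraries. Of the 21 genes, 15 also passed at an adjusted p under 0.05 between C4 and EV. *STXBP2* was as high in EV (19.4 to 26.3 FPKM) as in C4, and its difference turned to -0.29 (adjusted p = 0.582). *BMP7* stood at 8.15 to 13.5 FPKM in EV, so that C4 was 0.62 higher on the log2 scale (adjusted p = 0.425). *ANXA1* stood at 3.13 to 6.00 FPKM in EV, between both other lines, and its difference from C4 was -1.17 (adjusted p = 0.0656). *DMKN* (-0.66, adjusted p = 0.0735) and *GREB1* (-0.97, adjusted p = 0.194) kept their direction without passing. EV held 0.123 to 0.279 FPKM of *TCEAL9* and 12.5 to 15.3 FPKM of *ZNF22*, so that for both genes EV was farther from C4 than WT was. The log2 differences from EV were 5.53 for *TCEAL9* (adjusted p = 4.57e-08) and -3.61 for *ZNF22* (adjusted p = 1.63e-05).

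To see which of these differences set C4 apart from the other edited clones, C4 was compared with the mean of the other 5 clones in a fit of all 32 HAP1 libraries. Of 13180 genes, 127 passed an adjusted p of 0.05 (0.964%), 55 higher in C4 (0.417%) and 72 lower (0.546%). Here libraries of 1 clone stand against libraries of 5, so the test speaks of these lines and their libraries, not of clones in general. *TCEAL9* and *HCLS1* led: the 45.3 to 66.6 FPKM of *TCEAL9* in C4 compare with 0.0714 to 10.3 in the other clones (log2 difference 4.03, adjusted p = 3.72e-18), and the 19.9 to 26.1 FPKM of *HCLS1* with 0.158 to 8.37 (3.37, adjusted p = 9.01e-18). C5 was the next highest line in both. Of the neighbors, none of the 6 tested genes within 300 kb of *TCEAL9*, among them *BEX3*, *BEX4* and *TCEAL4*, was called between C4 and WT (log2 fold changes -0.26 to 0.30), nor was any of the 4 near *HCLS1* (-0.31 to -0.01). Only 0.16% of all tested genes were called, so the lack of a call among so few neighbors says little. The 2 neighbors of *ZNF22* (-0.53 and -0.23), the 1 of *DLK1* (*MEG3*, 0.34) and the 6 of *GTSF1* (-0.38 to 0.01) were not called either.

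Apart from *NUP58*, whose level in C4 among the clones was known beforehand, 8 genes passed with C4 libraries that did not overlap any of the 20 libraries of the other clones, 4 higher, *TCEAL9* and *HCLS1* among them, and 4 lower. *RPS6KA6*, a kinase of the ribosomal S6 kinase family, was at 14.1, 12.9, 10.0 and 16.7 FPKM in C4 and at 4.10 to 9.81 in the other clones (log2 difference 0.89, adjusted p = 4.28e-05). *ESD*, an esterase, was at 198, 191, 201 and 187 FPKM in C4, as in WT (log2 fold change -0.04), and at 94.3 to 183 in the other clones (0.48, adjusted p = 1.13e-05). *ESD* and *NUP58* both lie on chromosome 13, where the median log2 fold change against WT was -0.01 in C4, -0.59 in C5 and -0.52 in C6, and the part of this shift in the difference was not tested. Lower in C4 was *PTPRK*, a receptor tyrosine phosphatase, at 4.42, 4.72, 4.07 and 5.63 FPKM against 6.04 to 14.7 (-0.84, adjusted p = 4.86e-05). *H2AFY2*, which encodes a macroH2A histone, was at 8.57, 6.73, 8.68 and 7.29 FPKM against 9.34 to 22.8 (-0.78, adjusted p = 1.5e-05). *PTPRK* and *H2AFY2* also lay below WT, with log2 fold changes of -0.80 (adjusted p = 0.145, with the block 0.0401) and -0.64 (adjusted p = 0.161, with the block 0.0256).

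*IL12RB2*, a subunit of the interleukin-12 receptor, and *DSEL*, an enzyme related to dermatan sulfate epimerase, were the other lower genes, at low levels. *IL12RB2* was at 0.351 to 0.811 FPKM in C4 and 0.843 to 3.94 in the other clones (-0.98, adjusted p = 0.00169). *DSEL* was at 0.347 to 0.586 FPKM in C4 and 0.706 to 3.96 in the other clones (-0.72, adjusted p = 4.86e-05). Both were under the filter in C4 against WT.

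Of the genes that differed from WT, 7 more differed from the other clones with overlapping libraries. *DLK1* was 2.44 higher than the mean of the other clones on the log2 scale (adjusted p = 3.53e-05), although C1 to C3 held 19.8 to 115 FPKM and only C5 and C6, at 1.60 to 10.6, were near WT. *CADM1* was 1.82 higher (adjusted p = 6.43e-06), with C1 overlapping C4 at 8.41 to 15.1 FPKM and C3 at 0.163 to 0.331. *ZNF256* was 1.02 higher (adjusted p = 4.88e-06), with C3 and C6 at the level of C4. *STXBP2* was 0.80 higher (adjusted p = 0.0317), with C2 at the level of C4 (16.4 to 22.8 FPKM) and C1 overlapping C4 at 9.40 to 19.4. Of the lower genes, *ZNF22* stood -1.54 from the other clones (adjusted p = 1.31e-07), where C1 and C3 held 8.07 to 18.5 FPKM and C2, C5 and C6 held 0 to 1.21. *GTSF1* stood -1.06 from them (adjusted p = 0.00386) with C3 as low as C4, and *MYRIP* -0.74 (adjusted p = 0.00155) with C6 at the level of WT. For *SYT1*, by contrast, the other clones held 22.5 to 83.8 FPKM and the difference of C4 from them was -0.63 (adjusted p = 0.348). *BMP7*, *TMEM132E*, *HOXD13*, *FZD8*, *ANXA1*, *GCNT1*, *TES*, *GPAT3*, *GREB1* and *DMKN* did not pass against the other clones either. Their adjusted p-values in that fit ran from 0.066 for *DMKN* to 0.99975 for *GPAT3*.

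The transport machinery in which NUP58 works was described next. Of 31 other nucleoporins, 11 lay above WT and 20 below it, the median log2 fold change was -0.08, and none passed in limma, with 1 at an unadjusted p under 0.05. *NUP62* was at 62.6, 53.1, 75.0 and 77.1 FPKM in WT and at 70.1, 54.5, 76.1 and 67.6 in C4 (0.01 ± 0.15). *NUP54*, the other channel partner, was at 37.9 to 45.9 FPKM in WT and 34.0 to 44.3 in C4 (-0.10 ± 0.12). *NUP210*, a transmembrane nucleoporin, was at 65.5, 76.7, 44.7 and 48.7 FPKM in WT and at 43.2, 41.3, 31.3 and 34.97 in C4, and it alone fell with the block (-0.61, adjusted p = 0.439, with the block 0.0168). Of 24 karyopherins (14 above WT, 10 below, median 0.03), none passed and 2 had an unadjusted p under 0.05. *KPNA4*, an importin alpha, was at 14.1, 12.3, 18.2 and 15.8 FPKM in WT and at 22.6, 15.7, 24.1 and 21.6 in C4 (0.45, adjusted p = 0.648), and rose with the block (adjusted p = 0.0465). *KPNB1*, the importin beta that carries it, was at 215, 151, 324 and 267 FPKM in WT and at 298, 152, 324 and 304 in C4 (0.17 ± 0.28), with overlapping groups. *XPO1*, the main exportin, was at 144 to 188 FPKM in WT and 167 to 206 in C4 (0.16 ± 0.12). The 7 genes of the Ran cycle (median 0.01), 15 of mRNA export (-0.03) and 15 of nonsense-mediated decay (-0.04) had no call in either fit and none with an unadjusted p under 0.05, and of 14 genes of the lamina and inner nuclear membrane only *LMNA* fell with the block (-0.43, adjusted p = 0.767, with the block 0.0412).

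The 13 protein-coding genes of the mitochondrial genome showed the largest shift of the 33 lists. All 13 were lower in C4, with a median log2 fold change of -0.77 against -0.04 for all genes. None passed the adjusted threshold in limma, 11 had an unadjusted p under 0.05, 10 of 13 fell with the block (1.56% of all genes did), and the libraries of 9 did not overlap. *MT-ND4L*, a subunit of respiratory complex I, was at 3836, 5307, 5125 and 3453 FPKM in WT and at 1745, 2860, 2184 and 2680 in C4 (-0.91, adjusted p = 0.158, with the block 0.0195). *MT-ND5*, of the same complex, was at 577, 864, 1042 and 721 FPKM in WT and at 212, 454, 397 and 481 in C4 (-1.08, with the block 0.0114). *MT-ATP6*, of the ATP synthase, had a difference of -0.85 (adjusted p = 0.291, with the block 0.0223), and *MT-ND6*, the one gene of the other strand, -0.52 (adjusted p = 0.966, with the block 0.241). These transcripts overlap one another and have copies in the nuclear genome, so single values among them are uncertain.

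Together the mitochondrially encoded genes took 5.97%, 8.19%, 9.19% and 6.27% of the FPKM in WT and 3.12%, 5.94%, 4.20% and 4.82% in C4. The groups did not overlap (7.41 ± 1.54 and 4.52 ± 1.18%, SD, n = 4) and differed by -2.88 percentage points. In EV the share was 5.24% to 7.36%, which overlapped C4. The list's median was -0.54 against EV. The other lines also had negative medians against the same WT libraries, at -0.20 in EV and between -0.35 and -0.60 in the other 5 clones. Against the mean of the other clones all 13 were lower in C4 with a median of -0.33 (-0.02 for all tested genes), and none passed.

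Cytoskeletal genes were mostly lower. Of 26 tested, 3 lay above WT and 23 below it (median log2 fold change -0.26). None passed in limma, 9 had an unadjusted p under 0.05, and 6 fell with the block (1.56% of all genes did). *KRT8*, a keratin of simple epithelia, was at 10.6, 12.6, 6.01 and 10.8 FPKM in WT and at 3.53, 2.65, 3.72 and 3.85 in C4 (-1.28, adjusted p = 0.065, with the block 0.0212). *KRT18*, its partner, was at 30.2 to 43.6 FPKM and 21.5 to 28.3 (-0.59, adjusted p = 0.303, with the block 0.0137). *TPM1*, a tropomyosin of actin filaments, was at 73.1, 71.1, 83.5 and 86.5 FPKM in WT and at 50.2, 49.1, 57.1 and 60.0 in C4 (-0.53, adjusted p = 0.168, with the block 0.00961). None of these overlapped, and both keratins have pseudogenes that may share reads. The intermediate filament gene *NES* (-0.75, with the block 0.0198), *TAGLN2* (-0.47, with the block 0.0219) and the smooth muscle actin *ACTG2* (-1.17, with the block 0.0388) were the others, and *VIM* did not move with them (0.13 ± 0.15). The 7 epithelial markers, whose sum is largely that of these keratins, summed to 51.5 to 61.1 FPKM in WT and 29.0 to 35.5 in C4 with *CDH1* below 1 throughout, and the part of the other markers was not tested. The list's median was near 0 in EV (-0.0001) and between -0.17 and -0.39 in the other clones. Of 25 genes of integrins and focal adhesions (median -0.14), none passed, 6 had an unadjusted p under 0.05, and *FLNA* (-0.51, adjusted p = 0.372, with the block 0.0128) and *ITGA7* (-0.58, with the block 0.0425) fell with the block.

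Annexins and S100 proteins had a median of -0.23, with 2 higher and 10 lower of 12. *ANXA1* was the one that passed, and *S100A11* fell with the block (-0.69, adjusted p = 0.659, with the block 0.0273). Of 29 genes of the extracellular matrix (9 higher, 20 lower, median -0.09), none passed and 5 had an unadjusted p under 0.05. *LAMB1*, a laminin chain, was at 3.45, 6.42, 3.67 and 2.81 FPKM in WT and at 0.863, 0.870, 0.445 and 1.94 in C4 (-1.33, adjusted p = 0.156, with the block 0.041). *LAMA5*, another laminin chain, also fell with the block (-0.68, adjusted p = 0.364, with the block 0.0137). *SPARC*, a matricellular protein, was at 15.1 to 24.3 FPKM in WT and 3.94 to 12.01 in C4 (-1.24, adjusted p = 0.234), and was not called with the block either (0.0617).

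Growth factor and MAPK feedback genes had a median of -0.27 (9 higher and 19 lower of 28), which was -0.06 against EV. None passed in limma, and 6 had an unadjusted p under 0.05. *PDGFRA*, a receptor of platelet-derived growth factor, was at 6.89, 8.04, 3.85 and 5.66 FPKM in WT and at 19.7, 13.99, 11.5 and 14.4 in C4 (1.17, adjusted p = 0.0956, with the block 0.00826), with no overlap, while EV held only 0.505 to 0.717. *FGFR2* also rose with the block (0.48, with the block 0.0321). The immediate early gene *EGR1* was at 9.79, 34.4, 13.3 and 3.39 FPKM in WT and at 3.38, 7.70, 3.26 and 1.55 in C4 (-1.46, with the block 0.0132). Its highest value was in replicate 2 and its lowest in replicate 4 in both lines, and the groups overlapped. *FOS* (-0.89, with the block 0.0273), *IER3* (-0.63, with the block 0.0352) and *FGFR4* (-0.51, with the block 0.0265) were the others that fell with the block.

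Of 33 Wnt pathway genes (19 higher, 14 lower, median 0.07), *FZD8* passed and 4 rose with the block. *FZD1*, another Wnt receptor, was at 3.22, 3.16, 3.09 and 3.13 FPKM in WT and at 7.12, 8.38, 5.28 and 7.13 in C4 (0.93, adjusted p = 0.065, with the block 0.0162). The Wnt antagonist *SFRP1* (1.17, adjusted p = 0.0941, with the block 0.0158) stood only 0.43 above EV. *CCND1*, the cyclin D1 gene and a Wnt target, was at 1.97, 2.24, 3.90 and 1.35 FPKM in WT and at 8.51, 6.20, 4.82 and 5.55 in C4 (1.14, adjusted p = 0.168, with the block 0.0445). Of 36 genes of TGF-beta and BMP signaling (22 higher, 14 lower, median 0.07), the ligand *BMP7* passed and the receptor *ACVR2A* rose with the block (0.78, adjusted p = 0.22, with the block 0.0169). *CCN1*, a secreted target of this pathway, was at 43.5, 14.4, 13.2 and 8.42 FPKM in WT and at 8.43, 2.96, 3.80 and 4.49 in C4 (-1.63, with the block 0.0128). Replicate 1 was the highest in both lines.

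HOX genes, which set position along the body axis, had the highest median of the lists, 0.24, with 21 of 25 higher and 4 lower. *HOXD13* passed. *HOXC10* was at 5.43, 8.88, 3.89 and 5.01 FPKM in WT and at 18.5, 18.5, 15.1 and 12.8 in C4, without overlap (1.37, adjusted p = 0.0506, with the block 0.00464). The median of the list was 0.32 against EV, -0.02 in EV against WT, and 0.15 to 0.58 in the other clones against WT. HOX clusters hold antisense transcripts, and the counting is not stated to use strand, so that reads of a gene and its antisense partner cannot be told apart. Among 22 genes of stemness and early development, *SALL3*, a zinc finger regulator, was at 9.53, 13.2, 11.2 and 10.9 FPKM in WT and at 21.9, 24.8, 18.2 and 20.8 in C4 (0.88, adjusted p = 0.0506, with the block 0.00858). *SOX4* also rose with the block (0.58, with the block 0.0274), and *ESRG* fell.

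NRF2 targets had a median of -0.09 (4 higher, 17 lower), with none past the adjusted threshold and 3 at an unadjusted p under 0.05, and *NQO1*, a detoxifying quinone reductase, was at 89.3, 58.9, 69.2 and 46.2 FPKM in WT and at 34.9, 17.8, 32.9 and 28.8 in C4 (-1.18, adjusted p = 0.146, with the block 0.0105). *HMOX1*, the heme oxygenase, fell with the block as well (-0.70, with the block 0.0372), whereas *GCLC*, of glutathione synthesis, rose (0.39, with the block 0.0492). The 37 genes of the ATF4 amino acid response had a median of 0.01 and no call in either fit, with 1 at an unadjusted p under 0.05. The 19 p53 targets had a median of -0.01 against WT and of -0.28 against EV, and none at an unadjusted p under 0.05, with *CDKN1A* at 72.4, 8.52, 10.3 and 13.3 FPKM in WT and 26.6, 8.01, 4.63 and 15.3 in C4 (-0.58 ± 0.67). Of 30 DNA replication genes, 26 lay below WT and 4 above it (median -0.16). None passed in either fit, and 1 had an unadjusted p under 0.05.

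Of the other lists, hypoxia and glycolysis (28 genes, median -0.10), mitosis (24, -0.06), ER chaperones (18, -0.08), heat shock (12, -0.09), interferon response (22, -0.18 against WT and 0.11 against EV) and apoptosis (24, 0.03) had no gene past the adjusted threshold, with 1 to 6 genes a list at an unadjusted p under 0.05. With the block, *AURKA*, a mitotic kinase (-0.52, with the block 0.034), *ADM*, a hypoxia-induced peptide hormone (-0.64, with the block 0.0412), *CRELD2* (-0.52, with the block 0.0477) and *BST2* (-0.41, with the block 0.0316) fell and the chaperone *HSPA1A*, uncertain beside its near-identical copy *HSPA1B* (0.77, with the block 0.0482), the ubiquitin-like *ISG15* (0.88, with the block 0.0364) and the caspase inhibitor *XIAP* (0.59, with the block 0.0323) rose. *BCL2L1*, which protects from apoptosis, was at 32.4, 28.1, 31.8 and 32.4 FPKM in WT and at 23.3, 23.0, 22.7 and 24.5 in C4 and fell with the block (-0.40, adjusted p = 0.311, with the block 0.0417). Cholesterol synthesis (21 genes, median -0.04), antigen presentation (14, -0.08) and metallothioneins (5, -0.17 against WT and -0.60 against EV) had no call in either fit and none at an unadjusted p under 0.05. In cell adhesion (24, -0.11) and synaptic and vesicle genes (25, -0.18) the calls were *CADM1* and *SYT1*, and *NECTIN1*, another adhesion molecule, fell with the block (-0.53, with the block 0.0484). The Notch pathway (19, 0.01) and axon guidance (34, -0.10) had no call, while with the block the Notch feedback gene *NRARP* (0.44, with the block 0.0354) and the guidance receptors *EPHA4* (0.61, with the block 0.0392) and *NRP1* (0.52, with the block 0.0281) rose.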

How the data were processed

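Per the study's methods and the labels, the authors checked reads with FastQC, aligned them to GRCh38 with STAR, quantified genes with RSEM and deposited FPKM values without further normalization. In FPKM, very abundant transcripts can lower all other values. All 47 columns of the table were matched to libraries by the identifiers in the labels, and no 2 libraries held identical values. Of 57507 genes, 56417 (98.1%) were found in GENCODE 44, which gave positions, and 294 symbols belong to more than 1 gene.

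Values were analysed as log2(FPKM + 1), so that changes of low genes are understated. Tested genes had a mean of 1 FPKM or more over the libraries of a fit; the test was limma 3.58.1 (R 4.3.3; lmFit, eBayes with a trend) with the Benjamini-Hochberg adjustment, unpaired as in the study. Single values were compared by exact two-sided permutation tests. Other steps ran in Python 3.11.15 with pandas 2.3.3, numpy 2.4.6 and matplotlib 3.10.9. The fits were tested on simulated data.

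Same-numbered C4 and WT libraries deviated together from their line means (r across genes 0.324, 0.702, 0.541 and 0.424, against -0.541 to 0.307 for the 12 pairs of different numbers). The replicate numbers are those of the titles, which do not say what a number marks. Only the support for pairing by them comes from the data. Blocked values are given where they change a call.

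Named were *NUP58*, the 12 genes with the largest change in each direction among those with an adjusted p under 0.05 (filled up with genes of an unadjusted p under 0.01, over 2-fold and without overlap), up to 6 genes in each direction that set C4 apart from the other clones without overlap, up to 4 members with the smallest p in each of 33 gene lists, and the genes that bound shifted runs of 31 neighboring genes. *KPNB1*, *NUP62*, *NUP54*, *VIM* and other list members without a small p, the zinc finger genes and 3 genes under the filter were named after their values were seen. A gene that the rule names and a sequence are not reported here. The clone, the lists and the comparisons were chosen with earlier results of these data known. The alternatives were another pseudocount (0.1), no filter or one at 5, TPM and median-ratio scaling, limma without a trend, the replicate block, EV, WT with EV, or all HAP1 lines in the fit, an unmoderated test, and leaving out each library or clone. EV with the replicate block, and leaving out the mitochondrially encoded genes, were added after seeing the data.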

Additional observations from a re-analysis of the deposited data

Results flagged for a closer look

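In 13 of 174 groups of 4 libraries that were checked, 1 library stood far from the other 3 by Dixon's criterion, which chance gives in about 1 in 20 groups. In WT these were *DLK1* at 12.2 FPKM in replicate 3 (the others at 3.25 to 3.75), *CADM1* at 1.91 in replicate 4 (0.153 to 0.270), *CCN1* at 43.5 in replicate 1 (8.42 to 14.4), *CDKN1A* at 72.4 in replicate 1 (8.52 to 13.3) and, on the low side, *ERVK-28* at 8.39 in replicate 2 (10.75 to 11.1). *BCL2L1* in WT replicate 2 was also low, at 28.1 FPKM (31.8 to 32.4). In C4, *ZNF22* stood at 0.737 FPKM in replicate 2 (0.0396 to 0.111) and *IL12RB2* at 0.811 in replicate 1 (0.351 to 0.414). Replicate 2 of C4 also stood apart for *KPNB1* at 152 FPKM (298 to 324), *FOS* at 17.3 (2.07 to 3.79), *ADM* at 15.7 (5.58 to 6.84) and *NRARP* at 48.2 (27.4 to 29.2), and replicate 3 for *GCLC* at 27.7 (40.8 to 43.4). Without WT replicate 3 or WT replicate 4, *DLK1* and *CADM1* kept their calls.

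Differences of C4 from the mean of the other 5 clones passed a test across all genes, on the log2(FPKM + 1) scale, for *TCEAL9* (4.03), *HCLS1* (3.37), *DLK1* (2.44), *CADM1* (1.82), *ZNF256* (1.02), *RPS6KA6* (0.89), *STXBP2* (0.80) and *ESD* (0.48) on the higher side. On the lower side they were *ZNF22* (-1.54), *GTSF1* (-1.06), *IL12RB2* (-0.98), *PTPRK* (-0.84), *H2AFY2* (-0.78), *MYRIP* (-0.74) and *DSEL* (-0.72). The lists added *SPARC*, which was 1.23 higher in C4 than in the other clones (adjusted p = 0.000197), *TIMP1*, which was 0.83 higher (adjusted p = 6.43e-06), *CCND1* at -0.75 (adjusted p = 0.00154) and *NECTIN1* at -0.35 (adjusted p = 0.0328). *SPARC* and *TIMP1* had log2 fold changes of -1.24 and -0.45 against WT and *CCND1* of 1.14, so that for these 3 genes C4 lay between WT and the mean of the other clones.

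The filter on low FPKM held back 3 genes that were higher in all 4 C4 libraries than in the 28 other HAP1 libraries, and were not tested. *BNC1*, which encodes a zinc finger protein of basal epithelia and germ cells, had a mean of 1.05 FPKM in C4, with 0.631 to 1.58 in its libraries and at most 0.280 in the others. *FAM127C* had a mean of 1.81 FPKM (0.874 to 2.25, the others at most 0.457). *KIF5A*, a neuronal kinesin, had a mean of 0.325 FPKM, most of it in replicate 1 at 0.859, and the lowest C4 library (0.0869) was barely above the highest other one (0.0814).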

How the results depend on the processing

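The count of genes at an adjusted p under 0.05, 21 in the comparison as reported, was 12 with a filter at a mean FPKM of 5, 45 without a trend, 42 against EV, 76 against EV with the replicate block, 162 against WT and EV together, 135 with all 32 libraries in the fit, 31 scaled to TPM, 32 scaled to TPM without the mitochondrially encoded genes and 2 in an unmoderated test (*HCLS1* and *GREB1*). Pairing by the replicate block gave 319. Leaving out 1 library gave 12 to 27, with 12 without WT replicate 1 and 13 without WT replicate 4, C4 replicate 1 or C4 replicate 4. The 90 genes at an unadjusted p under 0.01 and over 2-fold became 39 with the filter at 5 and 55 in the unmoderated test, and 82 to 109 without 1 library. The 127 genes that differed from the other clones became 209 without a filter, 60 with the filter at 5, 328 with the replicate block, and 66 to 169 without 1 C4 library (75 without replicate 3, 66 without replicate 4). Without C1, C2, C3, C5 or C6 they were 229, 172, 298, 78 and 56. The difference of *NUP58* passed with the replicate block (-0.66), against WT and EV together (-0.65) and against EV with the block (-0.64). *STXBP2* reversed to -0.29 against EV, with and without the block. For the 24 other genes named against WT, 381 of 494 alternative values kept their side of the threshold, 93 lost it and 18 gained it. The 149 values of genes named against the other clones all kept theirs. These genes were picked from the same data for passing without overlap, so this record follows in part from that choice. Those 149 include *NUP58*, whose place above the other clones was known when C4 was chosen, so its values are no check. List medians moved by more than their spread in 15 of 692 values, and the mitochondrial list has no value where its genes are left out. The replicate block, limma without a trend and the unmoderated test leave log2 fold changes as they are, so their list medians could not move. The median of all genes moved by less than 0.1 in every alternative. The blocked fit changed no other call than those given or counted with their blocked values. The causes of these changes were not tested.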

Other observations

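Zinc finger genes of chromosome 19 were mostly higher in C4. The run of 31 neighboring tested genes with the highest median log2 fold change spans chr19:57304305-58213562, from *CTC-444N24.11* to *ZNF274*, with a median of 0.31. In it 28 of 31 genes were higher in C4 than in WT, 27 have a zinc finger symbol, 7 did not overlap and 1, *ZNF256*, passed. The run was picked by these same fold changes from 12328 overlapping runs, so its counts of higher and non-overlapping genes follow in part from that choice. The same run had a median of -0.02 in EV, and of 0.26, 0.18, 0.25, 0.32 and 0.07 for C1, C2, C3, C5 and C6. Over all 430 tested genes with a zinc finger symbol, a set chosen after these values were seen and therefore given without a test, 306 were higher in C4 and the median was 0.09. On chromosome 19 it was 0.15, with 141 of 183 higher, and on the other chromosomes 0.06, with 165 of 247 higher. Of all 13125 tested genes, 5570 were higher in C4. The median of the 430 genes was -0.002 in EV, and 0.10, 0.08, 0.12, 0.15 and 0.02 for C1, C2, C3, C5 and C6. On chromosome 19 it was -0.01 in EV, and 0.11, 0.05, 0.14, 0.18 and 0.02 for the same clones.

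Chromosome 22 had the lowest median of any chromosome in C4, -0.14, with 266 of 335 tested genes lower, and -0.19 against EV. The run with the lowest median lies there, at chr22:46761893-50628173 from *CTA-29F11.1* to *ARSA*, and was picked by these values like the highest run. Its median was -0.26, with 26 of 31 genes lower. For the whole chromosome it was 0.01 in EV, and -0.09, -0.17, -0.04, -0.25 and -0.04 for C1, C2, C3, C5 and C6. Chromosome 9 followed at -0.10, and the other 21 chromosomes lay between -0.07 and 0.01.

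Cholesterol synthesis genes in C4 stayed near WT (median -0.04), while the medians of the other clones were between -0.14 and -0.42. Against the mean of the other clones 20 of 21 were higher in C4 with a median of 0.23, and none passed an adjusted p of 0.05.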
